A study of Mus musculus with 20 samples.

Results

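The genes described are 8 cyclic nucleotide phosphodiesterase genes, Pde1a, Pde1c, Pde3a, Pde3b, Pde4b, Pde4d, Pde8b and Pde10a, picked by symbol out of the 26211 genes of a table of normalized read counts. All 8 were in the table and all 8 had a mean above the minimum used for testing. The RNA came from mouse pancreatic islets (small clusters of hormone-secreting cells), which had been freed by Liberase digestion, hand-picked and kept in culture overnight. There were 10 libraries from islets of P2Y14-knockout mice and 10 from islets of wildtype mice, and all 20 carried the strain label C57BL/6 x 129S6. The labels give no age, sex, treatment, gene-targeting design or animal number, and leave unsaid whether 1 animal gave 1 library. The p-values therefore cover only the spread among these 20 samples, which may be technical in part. The series title sets the receptor beside insulin release, and the comparison asked whether enzymes that break down cyclic nucleotides differed between the genotypes.

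Phosphodiesterases hydrolyse the second messengers cAMP and cGMP to inactive nucleotides and so set how long and where in the cell these signals last. In beta cells cAMP made by adenylyl cyclases after incretin receptor activation amplifies glucose-stimulated insulin secretion through protein kinase A and Epac, and phosphodiesterases limit this. P2Y14 is a receptor for UDP and UDP-sugars that couples to the Gi class of G proteins, which inhibit adenylyl cyclase. The families differ in substrate and control: the PDE1 enzymes are switched on by calcium and calmodulin, the PDE3 enzymes are inhibited by cGMP, the PDE4 and PDE8 enzymes act on cAMP only, and PDE10A acts on both nucleotides.

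Read totals over genes ran from 34520628 to 199847246 per library. P2ry14, the gene of the receptor, averaged 51.2 ± 31.4 normalized reads in knockout and 151 ± 67.4 in wild-type islets (SD, n = 10 each), with ranges of 0 to 113.5 and 79.7 to 262.1. The groups overlapped, and its log2 fold change of −1.97 did not pass over all genes (adjusted p = 0.244 by limma). Beta, alpha and acinar markers were present in every library, and the acinar list of the enzyme-secreting exocrine cells took between 5.74% and 29.9% of the reads. In whole islets, fewer cells of a type and less RNA per cell cannot be told apart.

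Transcription of several Pde4 and other phosphodiesterase genes is known to respond to cAMP itself through the cAMP response element (CRE), so the sequence before the start of the 3 genes with the smallest p values in the genotype comparison, chosen after those values were seen, is shown. RefSeq windows on GRCm38.p6 were matched for 6 of the 8 genes (Pde1a, Pde1c, Pde4b, Pde4d, Pde8b and Pde10a), with 19 annotated starts in all. Each window is the 250 bases before a start on the strand of the gene, and capitals mark a CRE half-site, TGACG or its reverse complement CGTCA. Where a gene has several starts the first in the table is printed. They are Pde4b at chr4:102421305-102421554 on the plus strand, Pde4d at chr13:108653927-108654176 on the plus strand and Pde1c at chr6:56362393-56362642 on the minus strand.
Pde4b: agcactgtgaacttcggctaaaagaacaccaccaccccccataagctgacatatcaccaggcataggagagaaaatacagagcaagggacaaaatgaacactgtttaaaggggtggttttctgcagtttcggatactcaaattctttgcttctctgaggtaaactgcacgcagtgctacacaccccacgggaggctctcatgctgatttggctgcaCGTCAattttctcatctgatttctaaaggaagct
Pde4d: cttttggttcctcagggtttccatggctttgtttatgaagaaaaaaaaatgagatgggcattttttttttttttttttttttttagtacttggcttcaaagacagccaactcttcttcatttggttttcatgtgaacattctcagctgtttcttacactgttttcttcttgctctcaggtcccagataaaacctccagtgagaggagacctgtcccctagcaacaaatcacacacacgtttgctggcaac
Pde1c: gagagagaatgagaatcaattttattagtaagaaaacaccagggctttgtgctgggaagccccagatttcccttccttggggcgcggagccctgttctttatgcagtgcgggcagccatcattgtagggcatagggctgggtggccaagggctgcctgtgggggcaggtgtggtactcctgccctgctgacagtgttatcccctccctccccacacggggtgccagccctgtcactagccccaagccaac
The Pde4b window held 1 half-site, which began 34 bases before the start, and the Pde4d and Pde1c windows held none. Only 1 start of Pde4d was matched, though GENCODE M21 names 20 transcripts for it. Which starts are in use in islets was not tested. Over the 19 windows of the 6 genes, 2 held a half-site, the printed one of Pde4b and one of Pde1a, and the full palindrome TGACGTCA, which contains both half-sites, was in 0. For comparison, 17.8% of all 32851 RefSeq windows of this length held a half-site and 1.55% the full palindrome. Windows of Pde8b overlap, so some bases are counted more than once. Counted by gene, Pde4b and Pde1a of the 6 genes held a half-site in a window, against 19.8% of 27025 genes. The 6 genes had more windows per gene, 19 in all, than the 27025 genes with their 32851, so these shares are not like for like. A match of letters describes the sequence and shows no binding.

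None of the 8 genes passed the test over all genes (limma, Benjamini-Hochberg adjusted p under 0.05), against 0.28% of the 17482 genes tested. At an unadjusted p under 0.05, 3 of the 8 were lower in knockout and 0 were higher, against 4.63% of all genes lower and 8.94% in either direction at that level. The 8 were chosen with earlier results of these data known, so this count is a description and not a test. The 3 were Pde4b, Pde4d and Pde1c, and these unadjusted values depended on the fit. With the beta or the macrophage score as a covariate, of the 3 only Pde4b stayed under 0.05 by limma. With the acinar score all 3 stayed under it, at 0.016 for Pde4b, 0.0099 for Pde4d and 0.018 for Pde1c by limma. The same held with the mesenchymal and smooth muscle score, at 0.014, 0.016 and 0.021. On the recovered reads edgeR and DESeq2 also called 0 of the 8. The fold change was negative in 5 of 8, with a median log2 of −0.26 over the 8 and of −0.002 over all genes tested, where 50.4% were negative. The groups overlapped in every one of the 8, and they did not overlap in 0.0343% of all genes.

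**Figure D1:**
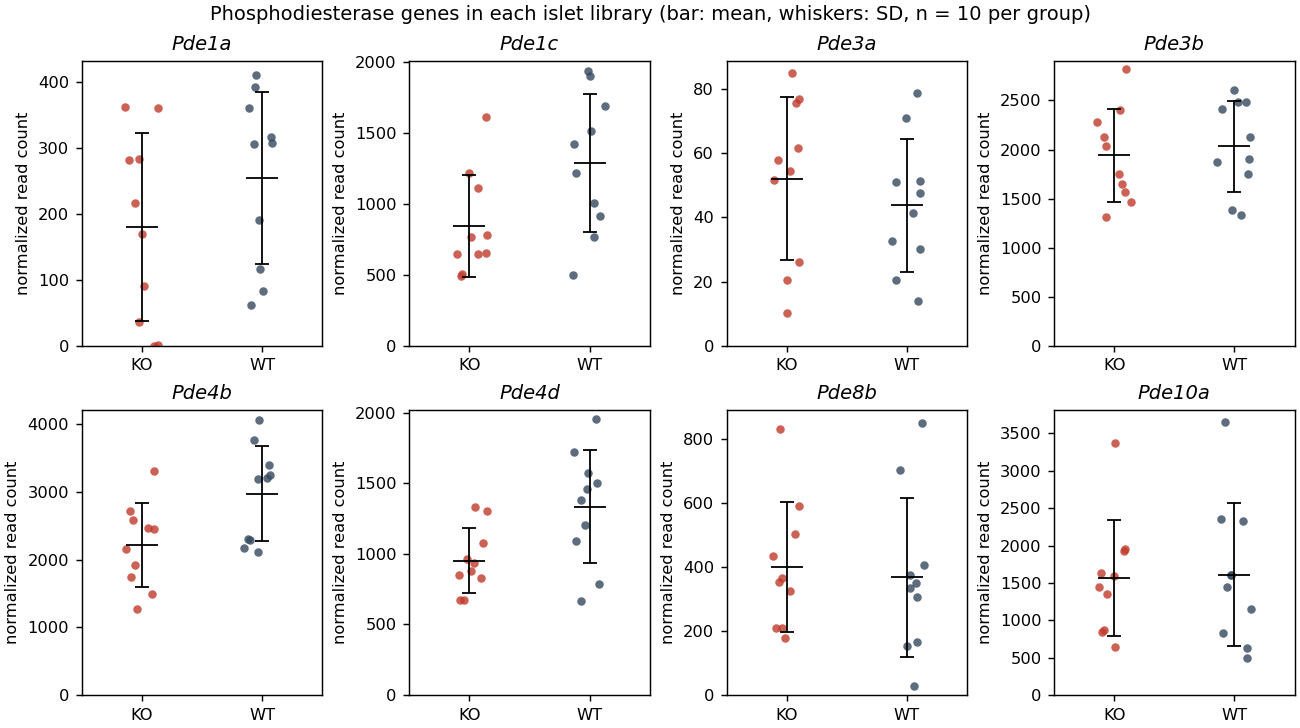
Normalized read count (vertical axes, from 0) of each of the 8 phosphodiesterase genes in knockout (KO, left, red) and wild-type (WT, right, blue) libraries; points are libraries, bars the mean and whiskers the SD, n = 10 each. All 8 pairs of groups overlap, and for Pde4d all 10 knockout libraries lie below the wild-type median of 1420.

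The cAMP-specific PDE4 enzymes are the targets of rolipram and the main cAMP-hydrolysing activity of many leukocytes and neurons. Pde4b (ENSMUSG00000028525, chromosome 4) had 1263, 2304 and 3314 normalized reads in the lowest, median and highest knockout library, against 2112, 3198 and 4068 in wild-type. In 9 of 10 knockout libraries it was below the wild-type median, 4 knockout libraries were below every wild-type library, and 3 wild-type libraries were above every knockout library. Its mean was 2210 ± 620.1 in knockout and 2976 ± 705 in wild-type (SD, n = 10 each), a ratio of 0.742. The log2 fold change on log2(value + 1) was −0.45, with a 95% interval from −0.79 to −0.10 and an adjusted p of 0.425 by limma.

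Pde4d (ENSMUSG00000021699, chromosome 13), whose product is anchored near receptors and AKAP scaffolds through long and short isoforms, had 671, 907 and 1335 normalized reads in the lowest, median and highest knockout library, against 667, 1420 and 1953 in wild-type. All 10 knockout libraries were below the wild-type median, and 6 wild-type libraries were above the highest knockout library, yet the lowest single value was a wild-type one. Its mean was 951 ± 229 in knockout and 1334 ± 402 in wild-type (SD, n = 10 each), a ratio of 0.713. The log2 fold change was −0.45 (95% interval −0.83 to −0.08, adjusted p = 0.461 by limma). The processed pseudogene Rps3a3 lies inside Pde4d in GENCODE M21 without touching its exons, and at 4135 normalized reads on average it was above Pde4d.

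The PDE1 enzymes link calcium entry to cyclic nucleotide breakdown, and PDE1C hydrolyses cAMP and cGMP with like affinity. Pde1c (ENSMUSG00000004347, chromosome 6) had 494, 711 and 1614 normalized reads in the lowest, median and highest knockout library, against 502, 1321 and 1937 in wild-type. Knockout replicate 5 held the highest knockout value, and 9 of 10 knockout libraries were below the wild-type median. The mean was 845 ± 360.0 in knockout and 1289 ± 488 in wild-type (SD, n = 10 each), a ratio of 0.655, with a log2 fold change of −0.60 (95% interval −1.12 to −0.09, adjusted p = 0.478 by limma).

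Pde1a (ENSMUSG00000059173, chromosome 2), which encodes an isoform that prefers cGMP, was the most uneven of the 8 in knockout islets. It had 0 reads in knockout replicate 7, which allows up to 6.11 normalized reads (3 counts, for counting error only), and 1.94 normalized reads in knockout replicate 2. The knockout median was 193 and the highest value 363, against 62.5, 307 and 412 in the lowest, median and highest wild-type library. The mean was 180 ± 142 in knockout and 255 ± 131 in wild-type (SD, n = 10 each), a ratio of 0.708. The log2 fold change was −1.57 (95% interval −3.50 to 0.35, adjusted p = 0.640 by limma). Its size rested on the libraries near 0, being −0.89 without knockout replicate 7, −0.49 by edgeR and −0.50 by DESeq2 on the recovered reads. With a marker score as a covariate it was −2.26 for macrophage, −1.67 for mesenchymal and smooth muscle, −1.92 for beta and −1.55 for acinar. The unadjusted p were 0.0124, 0.0389, 0.0563 and 0.115 by limma, and no adjusted p passed.

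Of the PDE3 pair, Pde3b is the form known for beta cells and fat cells, where it lowers cAMP, and Pde3a is known from heart, platelets and smooth muscle. Pde3b (ENSMUSG00000030671, chromosome 7) had 1308, 1892 and 2825 normalized reads in the lowest, median and highest knockout library, against 1329, 2015 and 2607 in wild-type. These ranges nearly coincide. The log2 fold change was −0.07, and its 95% interval from −0.38 to 0.24 was the narrowest of the 8 (adjusted p = 0.918 by limma). Pde3a (ENSMUSG00000041741, chromosome 6) was low, with 10.2, 56.2 and 84.9 normalized reads in knockout against 13.9, 44.4 and 78.8 in wild-type (lowest, median and highest). Its log2 fold change of 0.18 (95% interval −0.60 to 0.95, adjusted p = 0.917 by limma) was 0.02 without wild-type library 14 and 0.40 without knockout replicate 7.

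Pde8b (ENSMUSG00000021684, chromosome 13) encodes a high-affinity cAMP phosphodiesterase that the common inhibitor IBMX does not block. It had 177, 360.4 and 834 normalized reads in the lowest, median and highest knockout library, against 28.9, 343 and 851 in wild-type. The wild-type range reached further down, with 3 wild-type libraries below every knockout library and wild-type library 19 the lowest. The log2 fold change was 0.38 (95% interval −0.55 to 1.31, adjusted p = 0.829 by limma), and it was 0.02 without library 19 and −0.038 with library weights. Pde10a (ENSMUSG00000023868, chromosome 17), known for its high level in the striatum of the brain, had 644, 1521 and 3374 normalized reads in knockout against 498, 1520.2 and 3654 in wild-type (lowest, median and highest). The medians were alike and the spread within each genotype was wide, with a coefficient of variation of 49.9% in knockout and 59.7% in wild-type. Its log2 fold change was 0.05 (95% interval −0.64 to 0.74, adjusted p = 0.980 by limma), from −0.12 to 0.20 when 1 library was left out.

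**Figure D2:**
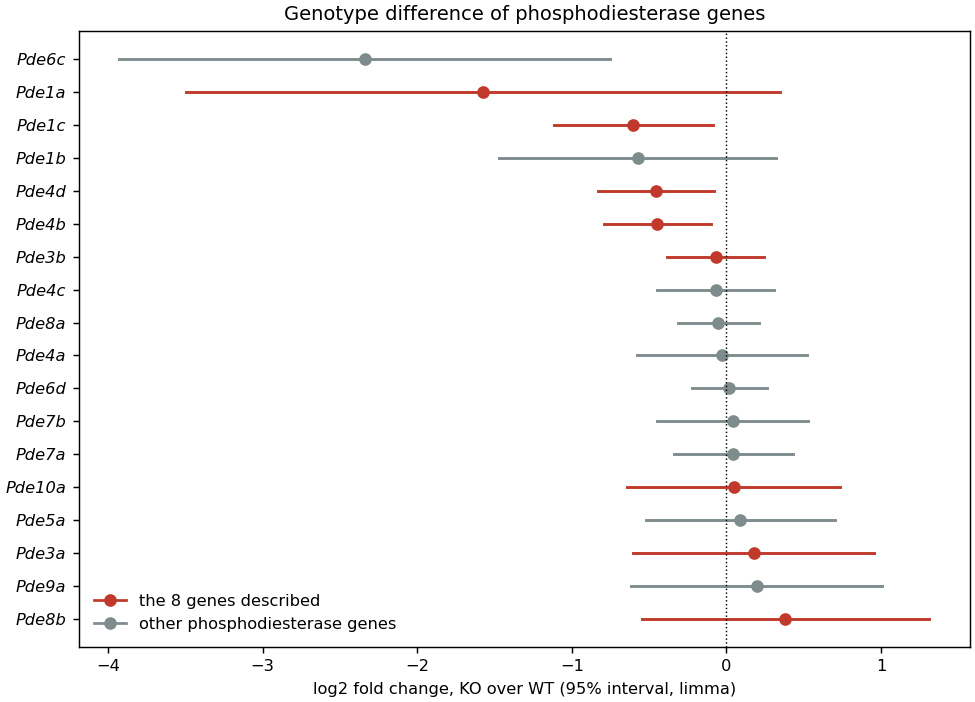
Log2 fold change of knockout over wild-type islets (horizontal axis) with its 95% interval from limma for the 18 phosphodiesterase genes tested, in order from the lowest to the highest; red marks the 8 genes described and grey the other 10. The intervals of Pde1c, Pde4b and Pde4d lie below 0 without adjustment, as does that of Pde6c, and no gene passed the adjusted p over all genes.

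The spread between libraries was above counting error in each of the 8. At the median of 2671 reads the counting error of Pde4b is 1.94%, while its coefficient of variation was 28.1% in knockout and 23.7% in wild-type. At the median of 48 reads that of Pde3a is 14.4%, against 48.8% in knockout and 47.2% in wild-type. Pde3b, Pde4b and Pde4d were the steadiest in both genotypes, between 22.7% and 30.2%, and Pde1a was the most variable in knockout at 78.8% and Pde8b in wild-type at 67.4%.

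Levels of different genes were compared per kb of the union of exons in GENCODE M21, which names 10 to 20 transcripts for 6 of the 8 genes, so the length in use in islets is uncertain. Per kb of that union, Pde4b and Pde3b were highest of the 8, at 209 ± 58.7 and 213 ± 52.3 in knockout and 282 ± 66.7 and 223 ± 50.8 in wild-type (normalized reads per kb, SD, n = 10 each). Pde4b was above Pde3b in 5 of 10 knockout and 8 of 10 wild-type libraries, so the order of these neighbours was not fixed. Pde3b was above Pde10a in 9 of 10 libraries of each genotype. By union length the order then ran Pde10a, Pde4d, Pde8b, Pde1c and Pde1a, and each of these neighbour pairs kept its order in only 12 or 13 of the 20 libraries. Pde3a was lowest, at 4.08 ± 1.99 in knockout and 3.44 ± 1.62 in wild-type, and Pde1a was above it in 18 of 20 libraries. Per kb of the longest transcript, the order of some neighbours turned round: Pde4d, at 272 over all libraries, was above Pde10a at 204, and Pde1c, at 122, was above Pde8b at 90.7. Over all libraries Pde4b and Pde3b stayed the highest of the 8 by that length, at 602 and 302, and Pde3a the lowest. In wild-type alone Pde4d, at 317, was above Pde3b, at 310, whereas in knockout Pde3b, at 295, was above Pde4d, at 226.

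**Figure D3:**
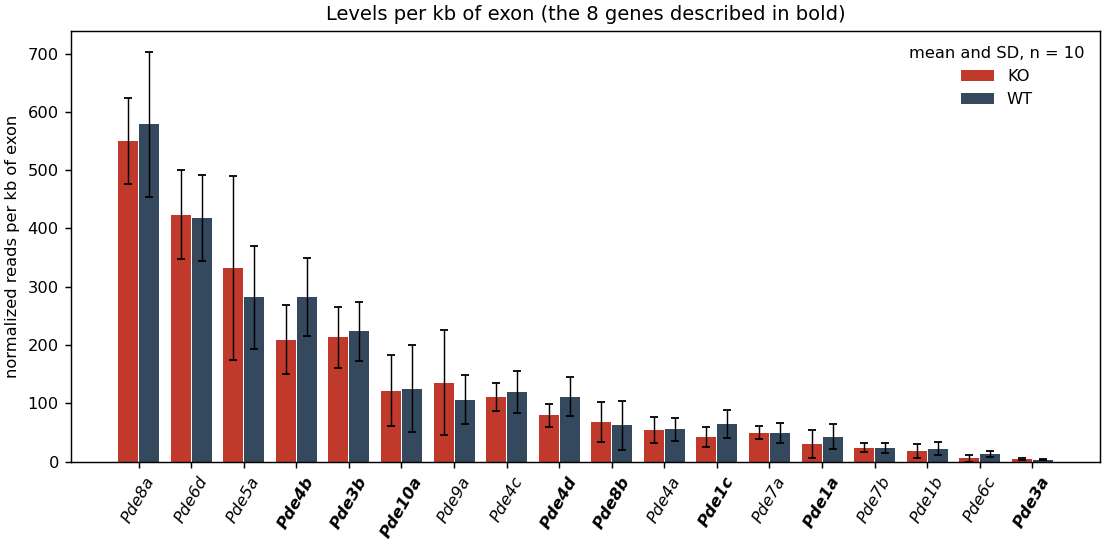
Mean normalized reads per kb of exon (vertical axis, from 0) of the 18 phosphodiesterase genes tested in knockout (red, left) and wild-type (blue, right) islets, with the SD over 10 libraries each, in order of the mean over all libraries; the 8 genes described are in bold. Pde8a, Pde6d and Pde5a have the highest means over all libraries by union exon length, followed by Pde4b and Pde3b, and Pde3a is the lowest; by the longest transcript Pde4b is in place 2, behind Pde6d.

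Per kb of union exon length, the 8 genes together made up 30.9 ± 3.71% of the summed phosphodiesterase level in knockout and 35.1 ± 4.42% in wild-type (SD, n = 10 each, 18 genes tested). This share is a description, since the 8 were not chosen at random. Its sum includes Pde6d, and it was not computed by the longest transcript. Of 16 other phosphodiesterase genes listed, 15 were in the table and 10 were tested. Pde6a, Pde6b, Pde6g, Pde6h and Pde11a had means under 10, and Pde2a was not analysed here. Pde8a, the close relative of Pde8b, had the highest level per kb of union exon length, at 551 ± 74.2 in knockout and 579 ± 124 in wild-type. By the longest transcript it was in place 3 of 18, at 601 over all libraries, behind Pde6d at 702 and Pde4b at 602. Next by union length was Pde6d, whose product is a carrier of prenylated proteins and not a catalytic subunit. Pde5a, the cGMP-specific target of sildenafil, had 332 ± 158 in knockout and 282 ± 88.9 in wild-type per kb.

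None of these 10 passed over all genes by limma, and 1, Pde6c of cone photoreceptors, had an unadjusted p under 0.05. Pde6c had 0 reads in knockout replicates 4, 6, 7 and 10 and at most 44.6 normalized reads in the other knockout libraries, against 24.9 to 71.2 in wild-type. Its adjusted p was 0.320 by limma, and its mean was 17.6 ± 17.7 in knockout and 38.3 ± 14.6 in wild-type (SD, n = 10 each). The other 9 had log2 fold changes between −0.57 for Pde1b and 0.20 for Pde9a, and the 95% interval was narrowest for Pde6d, from −0.23 to 0.26.

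The other genes of the pathway were counted by role, to be read against 4.63% of all genes lower and 8.94% in either direction at an unadjusted p under 0.05. These lists too were chosen with earlier results of these data known. Of 9 adenylyl cyclase genes tested, which make cAMP, 0 passed by limma and 0 had an unadjusted p under 0.05. Of the 3 with the smallest p, Adcy4 (log2 0.41) and Adcy5 (0.56) were positive and Adcy2 (−0.56) negative. Of 7 guanylyl cyclase genes, which make cGMP, 0 passed and 0 had an unadjusted p under 0.05, with Npr1, the natriuretic peptide receptor, at −0.27, Gucy1b1 at 0.21 and Gucy1a2 at 0.44. Among 15 effector genes 0 passed and 1 was lower unadjusted, Prkar1b, a regulatory subunit of protein kinase A, with 7920.2 ± 1468 in knockout and 9263 ± 1334 in wild-type normalized reads (SD, n = 10 each). Hcn3 (−0.29) and Prkar2a (−0.18) had the next smallest p.

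Of 22 genes for anchors and regulators of phosphodiesterases 0 passed by limma, and 1 was higher at an unadjusted p under 0.05. This was Calm2, one of the genes for calmodulin, with 2717 ± 638 normalized reads in knockout and 2195 ± 301 in wild-type (SD, n = 10 each, log2 0.28). The anchor gene Akap5, also among the 3 with the smallest p, was at −1.11. Of 18 genes around CREB, the cAMP-responsive transcription factor, 0 passed and 2 were lower unadjusted, the coactivator genes Crtc3 (log2 −0.40, 95% interval −0.66 to −0.13) and Crtc1 (−0.32). Their neighbour by p was Irs2, at −0.52.

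Of 19 receptor and G protein genes that act on cyclase 0 passed, with 5 lower and 0 higher at an unadjusted p under 0.05, where 4.63% of all genes were lower. Those with the smallest p were the adenosine receptor gene Adora1 (log2 −0.41, adjusted p = 0.379), the stimulatory alpha subunit gene Gnas (−0.33, adjusted p = 0.398) and the inhibitory Gnai1 (−0.28, adjusted p = 0.531 by limma). The median log2 fold change was −0.10 in this list, −0.15 in the CREB list, −0.11 in the effector list, −0.04 for adenylyl cyclases, 0.04 for guanylyl cyclases and 0.02 for anchors and regulators.

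Marker genes of the islet's cell types were measured beside these values. The alpha cell list was lower in knockout by 0.48 on the log2 scale of its mean (SE 0.17), with 5 of its 6 genes negative. Its summed level ran from 534555 to 1828930 in knockout and from 1187030 to 2279710 in wild-type. For delta and PP cells the difference was −0.54 (SE 0.15), with 5 of 5 genes negative and summed levels from 100600 to 550258 in knockout and from 187208 to 456708 in wild-type. The 10 beta cell genes had a difference of −0.12 (SE 0.10), and none of the markers of these lists was at 0 in any library. Across libraries, with genotype means removed, Pde1c, Pde4b and Pde4d had r of 0.33, 0.13 and 0.10 with the alpha score. For Pde1c this r was 0.65 within knockout and −0.12 within wild-type. With the delta and PP score r was −0.022, −0.0029 and 0.095. Adjusted p ran from 0.302 to 0.991 in a permutation test, which with 20 libraries does not show that a relation is absent. No fit took the alpha or the delta and PP score as a covariate. At an unadjusted p under 0.05 by limma, 5 of 6 alpha, 2 of 5 delta and PP and 2 of 10 beta genes were lower. Over all genes 4.63% were lower and 8.94% differed in either direction at that level. The macrophage score was higher in knockout by 0.38 (SE 0.30), with 4 of its 13 genes negative. Of its genes 3, Adgre1, Aif1 and Tyrobp, were higher at that level, with adjusted p from 0.318 to 0.530 by limma. Pde4d had an r of −0.56 with this score (permutation p = 0.0105, adjusted p = 0.0811) and a rho of −0.51 (permutation p = 0.0231, adjusted p = 0.142), and r was −0.37 without the 2 farthest libraries. With the macrophage score as a covariate the log2 fold change of Pde1c was −0.50 (unadjusted p = 0.0596 by limma) and that of Pde4d −0.32 (p = 0.0584). With the beta score as a covariate Pde1c was at −0.44 (unadjusted p = 0.0735 by limma) and Pde4d at −0.34 (p = 0.0604). Pde4b was at −0.37 with either score, with unadjusted p of 0.0363 and 0.0379 by limma. With the acinar or the mesenchymal and smooth muscle score as a covariate, Pde1c, Pde4b and Pde4d all stayed under 0.05 unadjusted by limma. Scaled to beta cell markers, a setting chosen after seeing the data, Pde4b was at −0.35 with an unadjusted p of 0.0528 by limma. That scaling also moved the median log2 fold change of all genes, from −0.002 to 0.09. The part of these cells in the lower values was not tested.

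Each of the 8 genes was set against 10 marker scores over the 20 libraries, with genotype means removed, which gave 80 relations. Of these, 2 had an adjusted p under 0.05 for Pearson's r. Pde1a went up with the endothelial score (r = 0.74, permutation p = 0.00015, adjusted p = 0.0120). Its Spearman's rho was 0.65 (permutation p = 0.00317, adjusted p = 0.0575), which did not pass. The r was 0.66 without the 2 libraries farthest from the median score, 0.81 within knockout and 0.67 within wild-type. The lowest endothelial scores belonged to knockout replicates 2 and 7 and wild-type library 19, and these 3 libraries also had the lowest Pde1a values of their genotypes. Other scores gave values of like size. With the Schwann cell score Pde1a had an r of 0.67 (permutation p = 0.00454, adjusted p = 0.0605) and a rho of 0.66 (permutation p = 0.00209, adjusted p = 0.0575), with r again 0.67 without the 2 farthest libraries. With the mesenchymal and smooth muscle score its r was 0.59 (adjusted p = 0.0675 by permutation) and with the macrophage score 0.54 (adjusted p = 0.0839 by permutation). The endothelial list had 10 of 10 genes in the table, none at 0 in any library, and summed levels from 26466 to 63369 in knockout and from 30274 to 55259 in wild-type.

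Pde3b went down with the macrophage score (r = −0.69, permutation p = 0.00077, adjusted p = 0.0308). Its Spearman's rho was −0.67 (permutation p = 0.00151, adjusted p = 0.0575), which did not pass. The r was −0.62 without the 2 farthest libraries, −0.77 within knockout and −0.61 within wild-type. With the duct score Pde3b had an r of −0.57 (adjusted p = 0.0791 by permutation). With the mesenchymal and smooth muscle score it had −0.55 (adjusted p = 0.0811 by permutation), and −0.61 without the 2 farthest libraries. Of the 10 scores, only beta (0.36) and alpha (0.23) gave Pde3b a positive r. The macrophage list had 13 of 13 genes in the table, with summed levels from 1596 to 5765 in knockout and from 1936 to 5394 in wild-type, and its genes Aif1, Itgam and Mrc1 were at 0 in some libraries. The part of these cells in either relation was not tested.

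**Figure D4:**
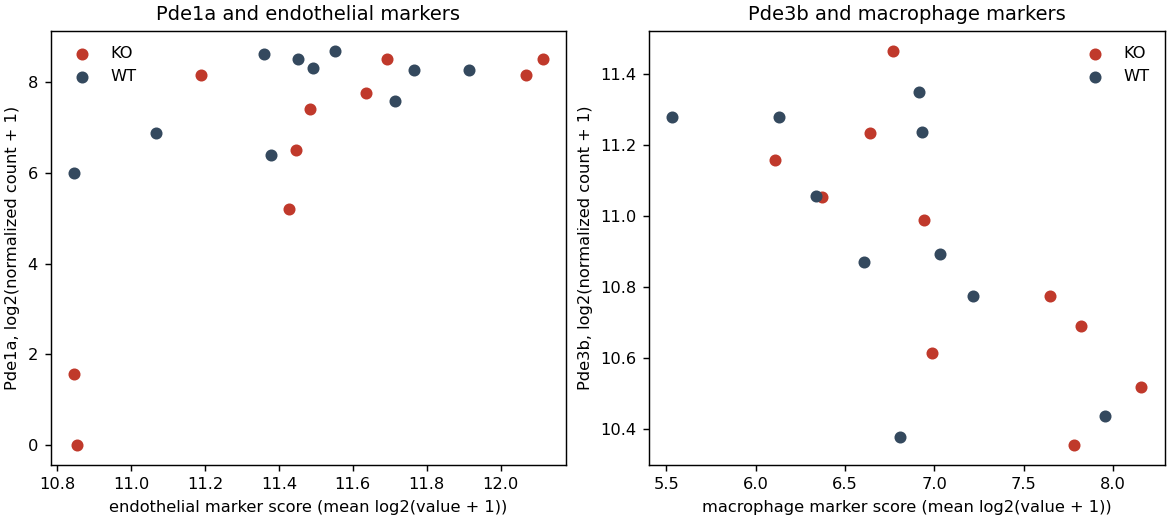
Left, Pde1a against the endothelial marker score, and right, Pde3b against the macrophage marker score, one point for each library, knockout in red and wild-type in blue; both axes are on log2(normalized count + 1), the score being the mean over the list. With genotype means removed r was 0.74 on the left, where knockout replicates 2 and 7 lie lowest, and −0.69 on the right.

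With the acinar score the r was −0.65 for Pde4d, −0.64 for Pde3b, −0.62 for Pde3a and −0.54 for Pde1c, with Spearman's rho of −0.65, −0.60, −0.62 and −0.57. Their permutation p values were 0.00234, 0.00291, 0.00383 and 0.0140 for r, and 0.00281, 0.00577, 0.00388 and 0.00961 for rho, and the adjusted p ran from 0.0582 to 0.0862 for r and from 0.0575 to 0.0854 for rho. Without the 2 libraries farthest from the median acinar score the r values were −0.81, −0.48, −0.55 and −0.49. Pde8b alone of the 8 had a positive r with the acinar score, 0.41. With beta cell markers the highest r was that of Pde10a, at 0.51, and none of the 8 passed against the beta, alpha or delta and PP scores. After quantile normalization, where no p was computed, the order of r with the beta score changed. Pde4d was then at 0.71, Pde3b at 0.69, Pde1c at 0.63, Pde3a at 0.57 and Pde10a at 0.53. Without it the r of Pde4d, Pde3b, Pde1c and Pde3a was 0.49, 0.36, 0.48 and 0.04.

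**Figure D5:**
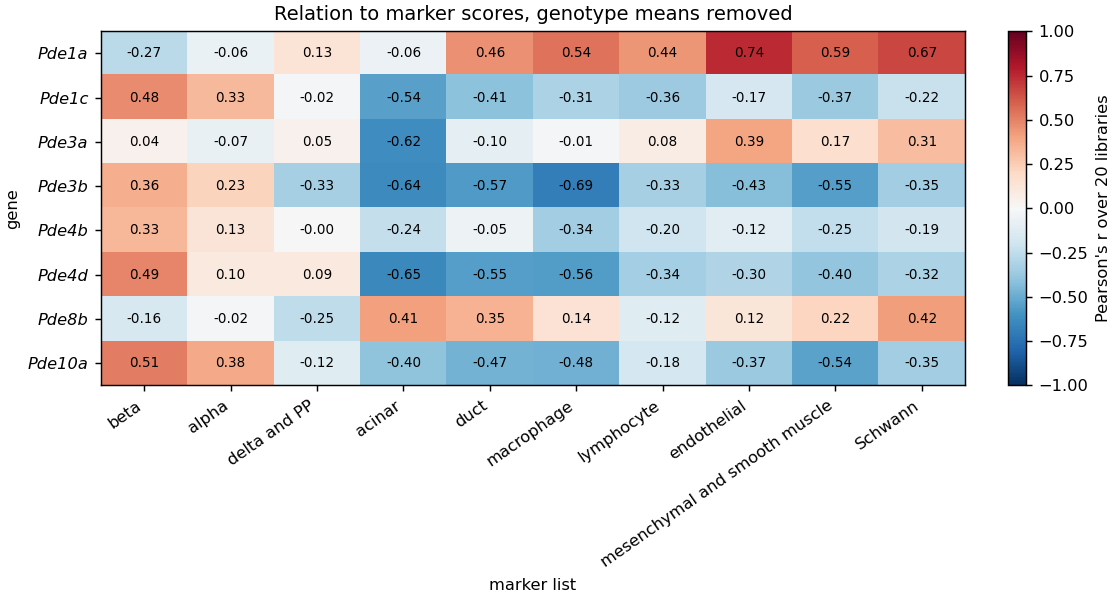
Pearson's r over 20 libraries, with genotype means removed, between each of the 8 genes (rows) and 10 marker scores (columns); red is positive and blue negative. Of the 80 values, 2 had an adjusted p under 0.05, Pde1a with the endothelial score at 0.74 and Pde3b with the macrophage score at −0.69.

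Among the 28 pairs of the 8 genes, none passed after adjustment for Pearson's r. The strongest was Pde1c with Pde3b (r = 0.63, permutation p = 0.00341, adjusted p = 0.0564). Its Spearman's rho was 0.62 (permutation p = 0.00424, adjusted p = 0.119), and r was 0.43 without the 2 farthest libraries. Pde4b and Pde4d, close relatives, had an r of 0.10, with −0.35 within knockout and 0.49 within wild-type.

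The genes most like each of the 8 were taken by the highest r over the 20 libraries with genotype means removed. The search covered the 13949 genes whose mean reached 50. For Pde3b these were Otud4, Etnk1 and Glcci1, with r from 0.95 to 0.96, the highest likeness of the 8. For Pde3a they were Xrcc2 (0.87), the ATP-gated channel gene P2rx7 (0.84) and Ablim1 (0.81). For Pde1a they were Ifi203 (0.87), Rasl12 (0.86) and Nsg2 (0.84), whose r within wild-type was 0.61, 0.47 and 0.41. Pde1c was most like F5, Tmtc1 and Dlg4 (0.80 to 0.85), Pde4b most like Gtf2ird1, Mgrn1 and 2700049A03Rik (0.77 to 0.81), and Pde4d most like Prune2, ENSMUSG00000090313 and Stx3 (0.82 to 0.84). Pde8b was most like Nsdhl, Fam13a and Plcl1 (0.79 to 0.82) and Pde10a most like ENSMUSG00000086597, Fbxl19 and Tbc1d22b (0.82 to 0.87). These values are the highest of many and describe these libraries only.

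By position, Pde3b stood closest to a gene that differed between the genotypes. It was number 914 of 1257 tested genes of chromosome 7 in gene order, 8 genes from Plekha7. Plekha7 averaged 927 ± 135 normalized reads in knockout and 1435 ± 238 in wild-type (SD, n = 10 each), or −0.63 on the log2 scale with an adjusted p of 0.00732 by limma, whereas Pde3b was at −0.07. Pde1a was 9 genes from Gm4735 on chromosome 2. The other 6 were at least 166 genes from the nearest such gene of their chromosomes.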

How the data were processed

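The deposited values are read counts per gene over the size factor of their library (a signal unit), which the authors normalized with DESeq, per the deposited table's title. The submitters' processing notes list DESeq 1.16.0, Cufflinks 1.3.0, Bowtie 0.9.9, TopHat 1.3.3, FastQC and the build mm9, with no role or order. For the read counter and its strand setting, nothing is given in the sources used here. The library kit, TruSeq RNA v2 per the labels' protocols, does not mark strand.

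In all 20 columns every non-zero value was a whole multiple of 1 step within 0.05 reads (100% of values), which returned whole reads. GENCODE M21 named 23950 of 26211 identifiers and gave exon lengths and gene order. It is on GRCm38, so no coordinate of the deposited data is printed. Wild-type columns, numbered 11 to 20, were used without a replicate number.

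Genes with a mean of at least 10 were tested with limma 3.58.1 in R 4.3.3 (eBayes with a mean trend) on log2(value + 1) with genotype as the only term. edgeR 4.0.16 and DESeq2 1.42.0 were run on the recovered reads, where edgeR called 43 genes. Other alternatives were pseudocounts, filters, scalings, library weights, marker covariates and leaving out each library. Relations used permutation tests with 100000 resamples (Python 3.11.15, scipy 1.17.1), after genotype means were removed. Counting errors and floors cover counting error only.

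The members, lists and tests were chosen with earlier results of these data known. Named are the 8 genes, the tested phosphodiesterases, up to 3 genes of each pathway list by p, and the 3 most alike genes. A gene that this rule names is not reported here.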

Additional observations from a re-analysis of the deposited data

Results flagged for a closer look

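Outlying libraries were looked for in each genotype of 19 genes (the 18 phosphodiesterase genes tested and P2ry14), 38 groups in all, in which chance flags about 1 in 20. In 3 groups the gap of a library to its nearest neighbour exceeded the 95% limit of Dixon's test for 10 samples. Pde10a stood apart in knockout replicate 5, at 3374 normalized reads against 1948 in the next knockout library. Replicate 5 was the shallowest library by total reads but not by size factor, which was 0.65 against 0.389 in knockout replicate 6. Pde4c stood apart in knockout replicate 2, at 952 against 672 in the next. Pde8a stood apart in knockout replicate 6, at 1486 against 2121 in the next lowest.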

How the results depend on the processing

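Across 35 alternative settings, 20 of which left out 1 library, 0 of 279 values of the 8 genes passed the adjusted p, and the lowest was 0.145, for Pde4b with library weights. Direction and call stayed in 265 of them and the sign turned in 14, in Pde10a, Pde3b and Pde8b. Pde10a, 0.05, was −0.13 when scaled to reads outside the acinar list, −0.15 with library weights, −0.045 by edgeR and −0.042 by DESeq2, and from −0.12 to 0.20 with 1 library left out. Pde3b, −0.07, was 0.066 with the macrophage score and 0.0021 with the beta score as a covariate, and 0.025 when scaled to beta cell markers, a setting chosen after seeing the data. Pde8b, 0.38, was −0.038 with library weights. With 1 library left out Pde4b ran from −0.52 to −0.36, Pde4d from −0.56 to −0.39, Pde1c from −0.74 to −0.52 and Pde1a from −1.83 to −0.89. The count over all genes, 49, was 29 with a mean of at least 100, 163 with library weights, 80 with the acinar score as a covariate and 137 by DESeq2. With 1 library left out it ran from 27 to 73, the lowest being 27 when knockout replicate 4 was dropped, 30 for wild-type library 19 and 32 for knockout replicate 8. Scaling to reads outside the acinar list moved the median of all genes to −0.18, and scaling to beta cell markers moved it to 0.09. No paired analysis was possible because wild-type columns carry numbers 11 to 20 and share none with knockout columns. The causes were not tested. With the length of the longest transcript in place of the exon union, the place of Pde4b per kb among 18 genes was 2 and not 4, of Pde4d 6 and not 9, of Pde1c 10 and not 12, of Pde10a 8 and not 6, of Pde8b 11 and not 10 and of Pde1a 15 and not 14.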

Other observations

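Recovered reads of low genes were even numbers more often than odd ones. Of values from 1 to under 40 reads, 59.4% to 63.8% were even, depending on the library, against 49.9% to 53.3% of values above 1000 reads. Pde6c was even in 16 of the 16 libraries with reads and Pde1a in 6 of 19. The counting errors given above take each read as independent. The cause of the even numbers was not tested.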
